A study of Mus musculus with 8 samples.

Results

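Semaphorins, their plexin and neuropilin receptors and the 2 plexin-domain proteins were examined in mouse embryonic stem cells (ESC) and in neural progenitor cells (NPC) derived from them. Members were all genes whose symbol begins with Sema and a class number from 3 to 7, with Plxn or with Plxdc, together with Nrp1 and Nrp2. This gave 33 of 21202 named genes, of which 20 were semaphorin ligands (7 secreted, 13 membrane-bound), 11 were receptors (9 plexins, 2 neuropilins) and 2 were plexin-domain proteins. All 33 had intron values and 32 had exon values, and the exons of Nrp1 were not analysed here. The ESC line F1-21.6 carries the background 129Sv-Cast/EiJ, a hybrid of mouse strains, and was kept on inactivated embryonic fibroblast feeders in serum with leukaemia inhibitory factor. The NPC are 1 clone differentiated from that line, so the comparison is between 1 line and 1 clone of the same genetic background. Each cell type had 2 biological replicates of 2 technical libraries, which gives 8 libraries of total RNA depleted of ribosomal RNA, read as 50 bp single ends. Tests on introns measure the spread between these 2 and 2 replicates, and the labels do not say how the biological replicates were grown apart.

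Semaphorins are guidance proteins that share a Sema domain and steer growing axons, migrating cells and blood vessels. Class 3 members are secreted and most bind a neuropilin, which passes the signal on through a plexin, while members of classes 4 to 6 span the membrane and class 7 is held by a lipid anchor, and these mostly bind plexins directly. Plexins carry a GTPase-activating domain inside the cell, act on small GTPases and change the cytoskeleton and adhesion. Neuropilins also serve as coreceptors of vascular endothelial growth factors.

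The labels matched the cells. All 5 ESC markers (Pou5f1, Nanog, Zfp42, Esrrb, Tdgf1) were called lower and all 5 NPC markers (Nes, Fabp7, Olig2, Pax6, Slc1a3) higher in NPC in the authors' deposited table. The 8 fibroblast markers, listed because of the feeders, summed to 31.9 RPKM in ESC and 9.91 in NPC, with none at 0 in either, and 5 were called lower. RPKM are reads per kilobase of exon or intron, scaled to the depth of the library. Olfactory receptor genes (Olfr), which neither cell type is known to use and which are called silent genes here, had a median exon level of 0 RPKM in ESC and 0.285 in NPC, with 95th percentiles of 0.0857 and 0.808. On introns their median over 105 genes was 0 RPKM in both ESC replicates, 0.779 in NPC replicate 1 and 0.0984 in NPC replicate 2. Intron levels near 0.8 RPKM in NPC replicate 1 are therefore no higher than those of silent genes. The intron columns rest on totals of 5186790 to 6500767 reads, while the depth behind the exon values is unknown.

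Most of the tested members stood higher in the progenitors. A gene was tested on exons where its mean over both cell types was at least 1 RPKM, and called at an adjusted p of at most 0.05 in the authors' deposited table. Of 26 members tested, 18 were called higher in NPC and 5 lower, where 32.3% of all tested genes were called higher and 33.9% lower, together 66.2%. With a change of at least 2-fold as well, 16 were higher and 5 lower, where 27.1% and 27.0% of tested genes were, together 54.1%. The median log2 fold change of NPC over ESC was 2.01 for these 26 members and -0.07 for all 12509 tested genes. Of the 26, 8 passed the filter through NPC alone and 5 through ESC alone, so that a difference was built into them. Among the other 13, at 1 RPKM or more in both cell types, 11 were called higher and 2 lower, where 30.7% and 31.0% of the 10268 such genes were. Exon values are given as pairs, ESC first and NPC second. Summed over the members with exon values, the exon level was 139 RPKM in ESC and 484 in NPC. In these bulk samples more cells of a type and more RNA per cell cannot be told apart.

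Calls were counted apart for ligands and receptors. Of 15 ligands tested, 8 were called higher, 4 lower and 3 neither way in the authors' deposited table, with a median log2 fold change of 1.19. Of 10 receptors tested, 9 were called higher and 1 lower, with a median of 3.17. Sema4a, Sema4d and Sema7a among the ligands called lower passed the filter through ESC alone. Sema4g, Sema5a and Sema6d among the ligands called higher passed it through NPC alone. So did Plxna4, Plxnb3, Plxnc1 and Plxnd1 among the receptors called higher. At 1 RPKM or more in both cell types the counts were equal, with 5 of 6 ligands and 5 of 6 receptors higher and 1 of each lower. All 10 receptors with exon values were at 1 RPKM or more in NPC, against 6 in ESC, whereas 11 of 20 ligands reached 1 RPKM in each cell type. Above 10 RPKM, the ligands numbered 1 in ESC and 7 in NPC and the receptors 3 and 6. The summed level of ligands was 55.8 RPKM in ESC and 246 in NPC, and that of receptors 67.5 and 211, so the ratio of ligand to receptor sums was 0.828 in ESC and 1.17 in NPC. The receptor sums leave out Nrp1, whose exons were not analysed here, while all 20 ligands are included, so both ratios lack 1 receptor. These sums are the authors' pooled values without replicate spread, and the difference between ligands and receptors was not tested.

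**Figure D1:**
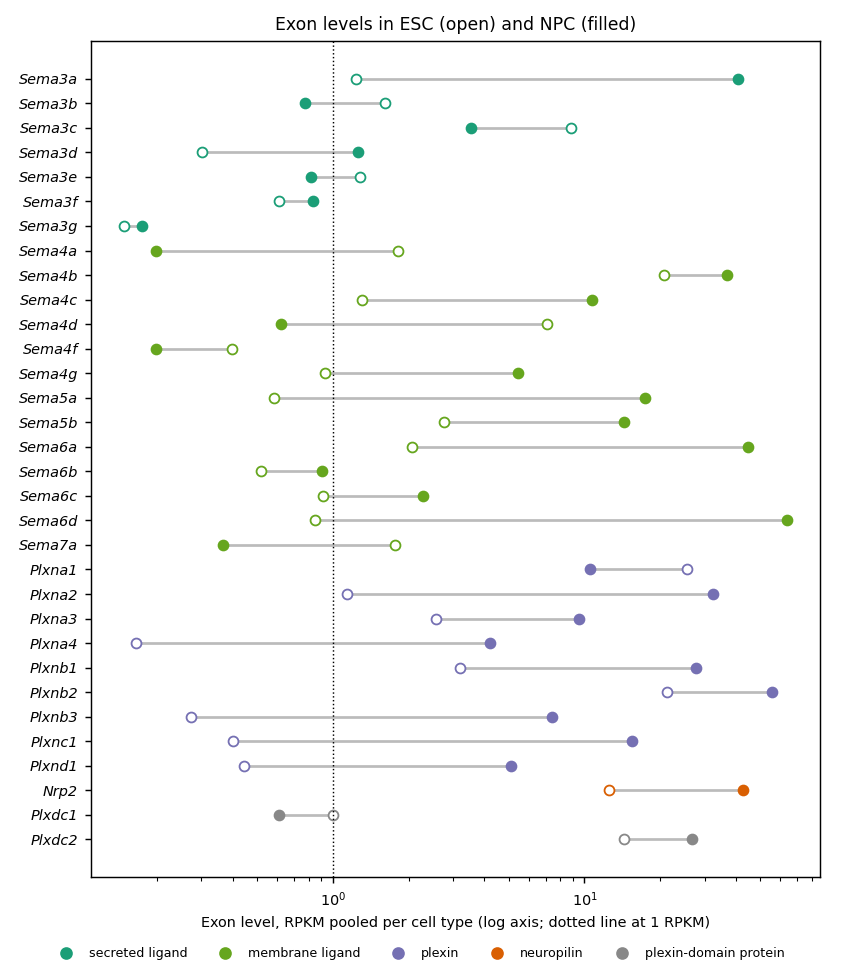
Exon levels of the 32 members with exon values, in RPKM pooled per cell type on a log axis, with 1 row per gene, open circles for ESC, filled circles for NPC and colours for the class of protein. Filled circles of all plexins except Plxna1 lie to the right of the open ones, and Sema6d spans the widest gap, from 0.849 to 63.6 RPKM.

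The 8 members with rises of at least 16-fold were the ligands Sema3a, Sema5a, Sema6a and Sema6d and the plexins Plxna2, Plxna4, Plxnb3 and Plxnc1. That is 8 of 26 members tested, where 5.63% of all tested genes rose as much, but Sema5a, Sema6d, Plxna4, Plxnb3 and Plxnc1 passed the filter through NPC alone. At 1 RPKM or more in both cell types, 3 of 13 members and 2.05% of all such genes rose as much. The 8 genes were picked from these same data by the size of their rise. RefSeq promoter windows (GRCm38.p6) run from 250 bases before to 50 after a transcript start. For 4 of the 8 genes that transcript start lies within 50 bases of the GENCODE start of the gene. The windows of these 4 are shown. These are, in order, chr2:124089719-124090018 on the plus strand, chr15:32244563-32244862 on the plus strand, chr10:94944796-94945095 on the minus strand and chrX:73756853-73757152 on the plus strand, each read 5′ to 3′, with every CG dinucleotide in capitals.
Sema6d: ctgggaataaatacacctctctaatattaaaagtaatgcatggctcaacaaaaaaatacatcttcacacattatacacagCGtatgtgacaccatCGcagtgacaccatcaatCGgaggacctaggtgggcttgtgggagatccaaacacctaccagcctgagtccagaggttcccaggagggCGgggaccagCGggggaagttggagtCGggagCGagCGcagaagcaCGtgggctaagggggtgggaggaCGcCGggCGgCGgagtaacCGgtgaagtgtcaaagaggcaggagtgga
Sema5a: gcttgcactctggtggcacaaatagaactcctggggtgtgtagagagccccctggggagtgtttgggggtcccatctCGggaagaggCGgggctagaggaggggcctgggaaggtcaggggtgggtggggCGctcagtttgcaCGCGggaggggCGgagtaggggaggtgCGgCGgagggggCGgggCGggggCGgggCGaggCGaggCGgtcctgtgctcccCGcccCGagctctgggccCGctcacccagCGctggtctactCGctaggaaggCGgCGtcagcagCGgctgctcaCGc
Plxnc1: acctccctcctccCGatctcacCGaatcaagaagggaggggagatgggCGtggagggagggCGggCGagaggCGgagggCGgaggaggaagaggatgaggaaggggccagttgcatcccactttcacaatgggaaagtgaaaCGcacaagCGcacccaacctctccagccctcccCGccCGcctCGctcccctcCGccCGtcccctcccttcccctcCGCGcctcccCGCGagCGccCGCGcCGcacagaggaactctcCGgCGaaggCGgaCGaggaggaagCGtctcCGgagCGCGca
Plxnb3: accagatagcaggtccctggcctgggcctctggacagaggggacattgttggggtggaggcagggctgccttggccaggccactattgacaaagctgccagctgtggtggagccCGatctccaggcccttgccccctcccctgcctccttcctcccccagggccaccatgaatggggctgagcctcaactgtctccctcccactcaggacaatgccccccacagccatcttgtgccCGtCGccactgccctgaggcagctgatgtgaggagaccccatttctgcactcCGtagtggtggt
The Plxnc1 window held 30 CG dinucleotides, that of Sema5a 23, that of Sema6d 14 and that of Plxnb3 4. Observed over expected CG was 0.843, 0.658, 0.659 and 0.133 in that order. These 4 genes, picked by their rise, thus start in CG-rich and in CG-poor sequence. Over all members tested on exons, 15 of the 21 with a window had one with a ratio above 0.6, and 77.0% of all tested genes with a window did. Among the 37 windows of 26 members, CAGCTG, an E-box bound by neural basic helix-loop-helix factors, stood in 6, ACAAAG, a core bound by Sox factors, in 8 and ATGCAAAT, the octamer of POU factors, in 0, each read on both strands. The same motifs stood in 16.3%, 18.7% and 1.74% of all 32851 windows. The deposited files use build mm9, so these windows were matched by gene symbol only, and Sema6d has a second window further downstream.

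Secreted semaphorins went different ways. Sema3a, the founding repellent of growth cones, stood at 1.24 RPKM in the stem cells and 40.7 in the progenitors, and the authors' deposited table gives a log2 fold change of 4.89 (adjusted p = 1.60e-81). Its introns were at 0.0458 and 0.0121 RPKM in ESC replicates 1 and 2 and at 1.13 and 0.810 in NPC replicates 1 and 2. Both NPC replicates lay above both ESC replicates, as in 42.4% of all genes with intron reads. The value of 0.810 in NPC replicate 2 stood well above the silent-gene median of 0.0984 in that column. In NPC replicate 1 the value of 1.13 stood nearer to the silent-gene median of 0.779. After subtraction of these medians the NPC values were 0.351 and 0.711. Sema3c, which guides neural crest and cortical axons, was at 8.88 and 3.54 RPKM, lower in NPC by a log2 fold change of -1.49 in the authors' deposited table (adjusted p = 6.74e-06). It was the highest secreted semaphorin of ESC, and Sema3a was the highest of NPC. In ESC the summed level of the fibroblast markers was also higher, and its part in the Sema3c level was not tested. Sema3c introns were not lower in NPC, at 0.133 and 0.0792 RPKM in ESC and 0.959 and 0.233 in NPC. Both NPC values lay above both ESC values, and after subtraction of the silent-gene medians they were 0.180 and 0.135, still above but by little in replicate 2.

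The other secreted members stayed low. Sema3b was at 1.62 and 0.774 RPKM and Sema3e, the ligand of plexin D1, at 1.28 and 0.821, and neither passed in the authors' deposited table (adjusted p = 0.135 and 0.210). Sema3d was at 0.301 and 1.25 RPKM, below the filter on the mean. Sema3f, a ligand of neuropilin 2, was at 0.611 and 0.834 RPKM and Sema3g at 0.148 and 0.175, both below the filter. On introns Sema3g had 3 and 0 reads in the ESC replicates and 26 and 6 in those of NPC, and a count of 0 in ESC replicate 2 allows up to 0.0580 RPKM, for counting error only. In all, 7 members had NPC exon levels at or below the 95th percentile of olfactory receptor genes: Sema3b, Sema3g, Sema4a, Sema4d, Sema4f, Sema7a and Plxdc1. For these the NPC level cannot be told from that of silent genes.

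Sema3d, Sema3a, Sema3e and Sema3c lie in this order on chromosome 5, all on the plus strand, with starts at 12383166, 13125414, 14025276 and 17080634 (mm9). The genes in this stretch of 4.70 Mb did not all share a direction, but only Sema3c was called lower. Between Sema3a, which rose, and Sema3c, which fell, lie Sema3e, which did not pass, and 8 named genes of other families. Of those 8, only Cacna2d1, a calcium channel subunit, passed the filter on the mean. It rose (1.77 and 17.8 RPKM, adjusted p = 1.25e-31 in the authors' deposited table). Below the filter, Sema3d and Pclo were higher too, with log2 fold changes of 1.78 and 1.27 (adjusted p = 0.0168 and 0.00976, authors' deposited table).

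**Figure D2:**
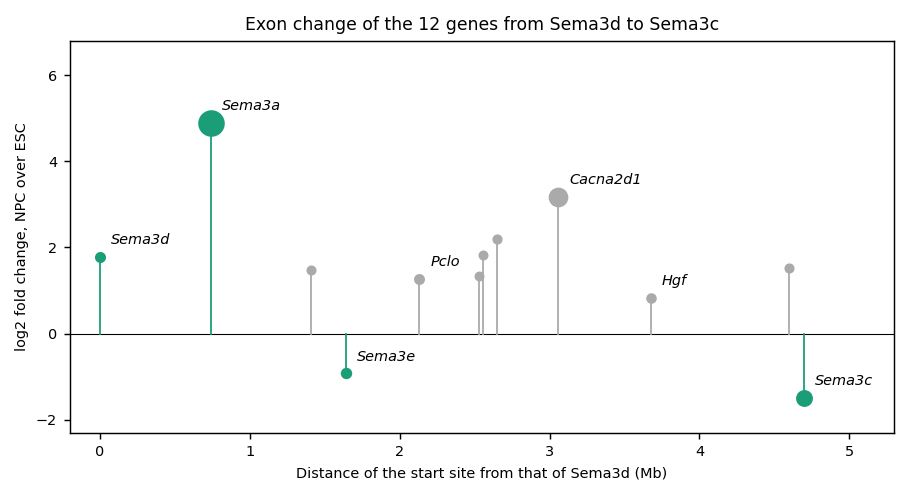
Exon log2 fold change of NPC over ESC in the authors' deposited table for the 12 named genes whose starts lie from Sema3d to Sema3c on chromosome 5, against distance from the Sema3d start in Mb, with semaphorins in green, other genes in grey and larger points for higher summed RPKM. Sema3a (4.89) and Cacna2d1 (3.17) stand out as high, and Sema3e (-0.93) and Sema3c (-1.49) are the only values below 0.

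Among the membrane ligands of classes 5 and 6, Sema5a, Sema5b, Sema6a and Sema6d rose on exons, and Sema6b and Sema6c were not called. Sema6d, a ligand of plexin A1, stood at 0.849 RPKM in the stem cells and 63.6 in the progenitors, which made it the most abundant semaphorin of NPC, and its log2 fold change of 6.08 was the largest in the family (authors' deposited table, adjusted p = 1.47e-117). Its introns, 446880 bases in all, were at 0.0729 and 0.0220 RPKM in ESC (188 and 64 reads) and at 1.75 and 2.47 in NPC (4527 and 5736 reads). The groups did not overlap, and limma on log2(RPKM + 1) gave a log2 fold change of 1.56 (SE 0.188, adjusted p = 8.71e-05). Sema6a, a ligand of plexins A2 and A4, was at 2.07 and 44.9 RPKM on exons (log2 fold change 4.33, adjusted p = 4.06e-57, authors' deposited table). Sema6a introns were at 0.506 and 0.454 RPKM in ESC and 2.05 and 4.00 in NPC (limma log2 fold change 1.40, SE 0.231, adjusted p = 0.000573). Sema6c was at 0.916 and 2.28 RPKM and did not pass in the authors' deposited table (adjusted p = 0.0674), while its introns, at 0.905 and 0.577 RPKM in ESC and 1.48 and 2.22 in NPC, were called higher in limma (log2 fold change 0.71, SE 0.199, adjusted p = 0.0129). Without ESC replicate 1 or 2 the Sema6c intron value was 0.84 or 0.57 and no longer passed, nor did it after subtraction of the silent-gene median (0.41, adjusted p = 0.414). Sema6b stayed below the filter at 0.518 and 0.909 RPKM.

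Sema5a, whose semaphorin domain is followed by thrombospondin repeats, was at 0.582 and 17.3 RPKM, and Sema5b, of the same build, at 2.77 and 14.3. Both rose in the authors' deposited table, with log2 fold changes of 4.76 (adjusted p = 1.47e-70) and 2.26 (adjusted p = 1.95e-11). Sema5a introns were at 0.157 and 0.0724 RPKM in ESC and 1.22 and 0.925 in NPC, without overlap. Sema5b introns were at 0.789 and 0.756 RPKM in ESC and 1.23 and 1.28 in NPC, and did not pass in limma (log2 fold change 0.35, SE 0.173, adjusted p = 0.117).

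Class 4 and 7 ligands split. Sema4c, a ligand of plexin B2, rose from 1.31 to 10.7 RPKM and Sema4g from 0.931 to 5.46, with log2 fold changes of 2.89 and 2.44 in the authors' deposited table (adjusted p = 1.25e-13 and 2.42e-07). Sema4c introns were at 0.434 and 0.423 RPKM in ESC and 2.55 and 5.02 in NPC, a rise in limma (log2 fold change 1.69, SE 0.240, adjusted p = 0.000216). Sema4c is overlapped on the opposite strand by the transcript D430040D24Rik in GENCODE, and no source used here says whether counting used strand. Sema4d, a ligand of plexin B1, fell from 7.10 to 0.621 RPKM (log2 fold change -3.63, adjusted p = 2.22e-18, authors' deposited table). Sema4a fell from 1.81 to 0.197 RPKM and Sema7a, the lipid-anchored ligand of plexin C1, from 1.77 to 0.365 (log2 fold changes -3.12 and -2.45, adjusted p = 0.000118 and 0.00562, authors' deposited table). These 3 genes stood at only 1.77 to 7.10 RPKM in ESC. The summed fibroblast markers were higher there too (31.9 against 9.91 RPKM), and their part in these values was not tested. Introns of these 3 genes overlapped between the cell types, with Sema4d at 0.527 and 0.488 RPKM in ESC and 0.594 and 0.205 in NPC. After subtraction of the silent-gene medians both NPC replicates lay below both ESC replicates in all 3, with Sema4d at 0 and 0.107 in NPC. The same held for 42.1% of all genes with intron reads. As deposited, all 3 genes were below the silent-gene median of 0.779 in NPC replicate 1. Subtraction set them to 0 there, so it cannot show a fall in that replicate. Sema4f stayed below the filter at 0.399 and 0.198 RPKM.

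Sema4b, the most abundant semaphorin of ESC, moved in opposite directions on exons and introns. Its exon level, 20.8 RPKM in ESC, reached 36.9 in NPC, a log2 fold change of 0.71 in the authors' deposited table (adjusted p = 0.0183). Its introns were at 7.73 and 8.90 RPKM in ESC and 2.26 and 3.92 in NPC, and limma called them lower (log2 fold change -1.21, SE 0.400, adjusted p = 0.0264). Of 8380 genes tested in both tables, 0.621% were called higher on exons and lower on introns, and Sema4b is the only member among them. The intron call was lost without ESC replicate 1 or 2 (-1.31 or -1.12), where the spread comes from NPC alone, and after subtraction of the silent-gene median (-1.43, adjusted p = 0.0868), while both NPC replicates stayed below both ESC replicates.

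Plexins rose with the exception of Plxna1. Plxna2, a receptor of class 6 semaphorins, stood at 1.14 RPKM in the stem cells and 32.5 in the progenitors, Plxna4, which serves class 3 and class 6 ligands, at 0.164 and 4.21, and Plxna3, a partner of neuropilins, at 2.57 and 9.51. Their log2 fold changes in the authors' deposited table were 4.68, 4.49 and 1.76 (adjusted p = 4.67e-69, 5.86e-33 and 8.45e-08). Plxna1 was at 25.5 and 10.5 RPKM (log2 fold change -1.39, adjusted p = 1.58e-07, authors' deposited table). It was the highest plexin of ESC and ranked below Plxnb2, Plxna2, Plxnb1 and Plxnc1 in NPC. On introns Plxna1 was at 3.19 and 3.35 RPKM in ESC and 0.778 and 1.28 in NPC, a fall in limma (log2 fold change -1.08, SE 0.207, adjusted p = 0.00144). Plxna2 introns were at 0.218 and 0.111 RPKM in ESC and 2.14 and 3.36 in NPC, a rise (log2 fold change 1.67, SE 0.201, adjusted p = 8.71e-05 in limma). The 2 genes of this subfamily therefore changed places on exons and introns alike. Plxna3 introns were at 1.24 and 1.08 RPKM in ESC and 1.47 and 3.09 in NPC and did not pass in limma (adjusted p = 0.0702). In all, 13 members have a GENCODE gene on the opposite strand, such as Gm26811 in Plxna1, and none is overlapped by a protein-coding gene.

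All 3 plexins of the B subfamily, which signal through guanine nucleotide exchange factors, rose on exons. Plxnb2 was at 21.3 and 55.5 RPKM, the highest receptor of NPC, Plxnb1 at 3.19 and 27.8, and Plxnb3 at 0.272 and 7.41. Log2 fold changes in the authors' deposited table were 1.25, 2.99 and 4.64 (adjusted p = 5.13e-07, 1.32e-27 and 1.42e-28). Plxnb3 introns, at 0.314 and 0.0492 RPKM in ESC and 1.32 and 2.59 in NPC, rose in limma (log2 fold change 1.30, SE 0.227, adjusted p = 0.000829). Plxnb1 introns were at 1.91 and 1.93 RPKM in ESC and 2.72 and 6.26 in NPC, with a log2 fold change of 0.83 (SE 0.317, limma adjusted p = 0.0483). Leaving out NPC replicate 2 gave 0.35 and leaving out NPC replicate 1 gave 1.32, where the spread comes from ESC alone. Leaving out ESC replicate 1 or 2 gave 0.83 or 0.84, where the spread comes from NPC alone. The Plxnb1 call was lost in limma after subtraction of the silent-gene median (0.65, adjusted p = 0.373). It held in only 5 of 12 alternative fits. Plxnb2 introns were at 6.57 and 6.25 RPKM in ESC and 2.01 and 4.34 in NPC, below ESC in both replicates against the exon rise, and did not pass in limma (log2 fold change -0.89, SE 0.383, adjusted p = 0.0760). Without NPC replicate 1 the Plxnb2 intron value was -0.47 and without NPC replicate 2 it was -1.30. In these fits the spread comes from ESC alone.

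Plxnc1, the receptor of Sema7a, was at 0.400 and 15.5 RPKM and Plxnd1, the receptor of Sema3e known from blood vessels, at 0.444 and 5.11. Both rose in the authors' deposited table (log2 fold changes 5.11 and 3.36, adjusted p = 1.28e-55 and 1.10e-15). Plxnc1 introns were at 0.146 and 0.114 RPKM in ESC and 1.12 and 0.779 in NPC, and those of Plxnd1 at 0.135 and 0.0693 in ESC and 0.456 and 0.585 in NPC. Both NPC replicates lay above both ESC replicates in each gene. After subtraction of the silent-gene medians Plxnc1 was still higher in both, at 0.345 and 0.680, whereas Plxnd1 overlapped, at 0 and 0.487.

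Neuropilin 2, the receptor of Sema3f and a coreceptor of vascular growth factors, was expressed in both cell types. Nrp2 exons were at 12.5 and 42.7 RPKM (log2 fold change 1.62, adjusted p = 6.03e-11, authors' deposited table). Its introns differed little, at 1.67 and 1.85 RPKM in ESC and 1.45 and 1.90 in NPC (limma log2 fold change -0.05, SE 0.192, adjusted p = 0.844), and with columns centred on their medians the value was 0.35 and did not pass. Nrp1, the receptor of Sema3a, had introns at 0.146 and 0.0528 RPKM in ESC and 1.28 and 0.597 in NPC, from 103, 42, 904 and 379 reads. Both NPC replicates were above both ESC replicates, also after subtraction of the silent-gene medians (0.497 and 0.499). Plxdc2, a transmembrane protein that shares only a short plexin-type repeat, was at 14.3 and 26.7 RPKM (log2 fold change 0.75, adjusted p = 0.0143, authors' deposited table), and its introns at 0.305 and 0.299 in ESC and 1.12 and 0.455 in NPC. Plxdc1 was at 1.00 and 0.609 RPKM, below the filter on the mean.

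Known pairs of ligand and receptor can be read side by side from these exon levels. Sema6a (2.07 and 44.9 RPKM) and its receptor Plxna2 (1.14 and 32.5) both rose, as did Sema4c (1.31 and 10.7) and Plxnb2 (21.3 and 55.5). In the pairs Sema4d and Plxnb1 (7.10 and 0.621 against 3.19 and 27.8) and Sema7a and Plxnc1 (1.77 and 0.365 against 0.400 and 15.5) the ligand fell and the receptor rose. Sema6d (0.849 and 63.6) rose while Plxna1 (25.5 and 10.5) fell. Sema3e (1.28 and 0.821) did not pass while Plxnd1 (0.444 and 5.11) rose. These pairs were picked from textbook binding with the values known, and no test of pairing was made.

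On introns, 13 members had a mean of at least 1 RPKM and were tested with limma across 8811 genes. Of these 7 were called higher (Sema4c, Sema6a, Sema6c, Sema6d, Plxna2, Plxnb1, Plxnb3) and 2 lower (Sema4b, Plxna1), where 13.2% of all tested genes were called higher and 34.0% lower, together 47.3%. The members' median log2 fold change was 0.71 and that of all tested genes -0.43, so a value of 0 already lies above the bulk of genes. Calls of Plxna2, Sema6a and Sema6d held in all 12 alternative fits. Those of Sema4c, Plxna1 and Plxnb3 held in 11, the exception being limma voom on recovered reads (adjusted p = 0.112, 0.0523 and 0.112). Those of Sema4b, Sema6c and Plxnb1 held in only 7, 6 and 5 of the 12. Adding 1 before the logarithm makes these fold changes smaller: with 0.1 in its place that of Sema6d was 3.91 and that of Plxna2 3.43. The other 20 members, among them Sema3a, Sema5a, Plxna4 and Plxnc1, had lower intron levels, between 0.404 and 1.28 RPKM in NPC replicate 1, around the silent-gene median there. In 18 of these 20 NPC replicate 1 was above NPC replicate 2. That order held in a smaller share, 56.0%, of all named genes, which include genes with higher intron levels. As deposited, both NPC replicates exceeded both ESC replicates in 22 of 33 members and lay below in 4, where 42.4% and 29.2% of all genes with intron reads did. After subtraction of the silent-gene median of each column these counts were 13 and 10, where 16.0% and 42.1% of genes did.

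**Figure D3:**
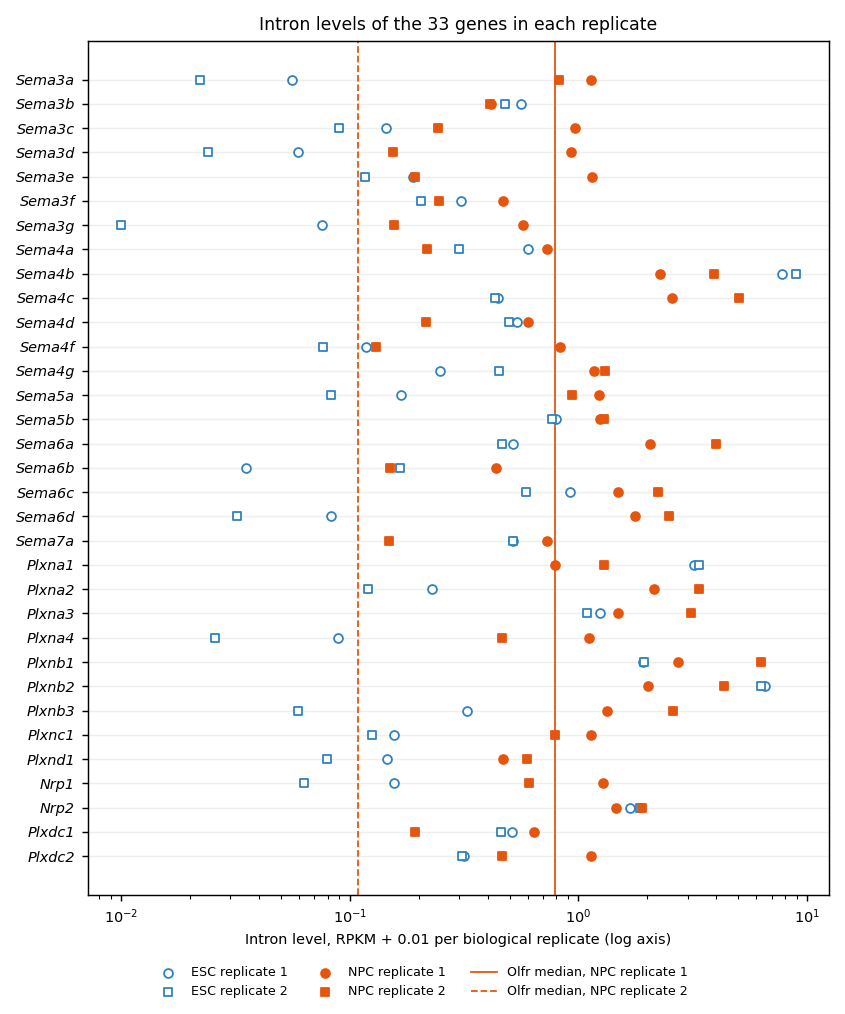
Intron levels of the 33 members in RPKM + 0.01 on a log axis, with 1 row per gene, blue open symbols for the 2 ESC replicates, orange filled symbols for the 2 NPC replicates, and vertical lines at the olfactory receptor medians of NPC replicates 1 (0.779 RPKM) and 2 (0.0984 RPKM). Many NPC replicate 1 values gather near the solid line. Sema6a, Sema6d, Sema4c and Plxna2 exceed it in both NPC replicates, as do other members such as Plxnb1 and Sema4b.

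Exons and introns were set side by side for the 13 members tested on introns. Of the 7 members called higher on introns, all but Sema6c were called higher on exons too, and Plxna1 was called lower on both. Sema5b, Plxna3, Plxnb2 and Nrp2 were called higher on exons and did not pass on introns. With columns centred on their medians, limma called introns of Sema5b (0.74, adjusted p = 0.0449) and Plxna3 (0.96, adjusted p = 0.00780) higher. Plxnb2 (-0.49) and Nrp2 (0.35) did not pass there. After subtraction of the silent-gene medians none of these genes passed.

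**Figure D4:**
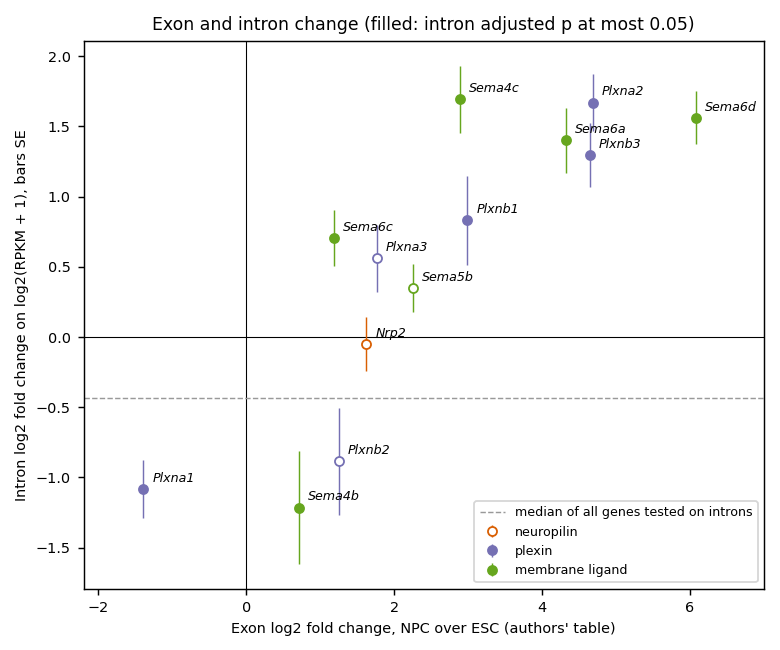
Intron log2 fold change on the log2(RPKM + 1) scale with its standard error against the exon log2 fold change of the authors' table for the 13 members tested on introns, with filled points for limma adjusted p of at most 0.05 and a dashed line at the median of all genes tested on introns (-0.43). Plxna1 lies low on both axes, and Sema4b (-1.21) and Plxnb2 (-0.89) lie below 0 on introns and above 0 on exons.

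Other genes of the pathway were taken from a list of 68 coreceptors, further ligands, effectors and processing enzymes. Of 57 tested on exons, 30 were called higher and 13 lower in the authors' deposited table, where 32.3% and 33.9% of all tested genes were, with a median log2 fold change of 0.83 beside the -0.07 of all tested genes. Among the coreceptors and other receptors 5 of 9 rose and 3 fell. Ptprz1, a receptor phosphatase, rose from 0.650 to 240 RPKM, and the adhesion proteins Nrcam and Chl1, partners of neuropilins, from 0.359 to 12.4 and from 0.170 to 3.85. L1cam, the partner of neuropilin 1 in the Sema3a receptor, fell from 2.22 to 0.250 RPKM, a level that silent genes also reached. Of the 4 other neuropilin ligands, Vegfa (14.1 and 126), Vegfb (23.3 and 58.3) and Pgf (1.25 and 9.00) rose and Vegfc (13.0 and 0.741) fell.

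Of 41 cytoplasmic effectors tested, 20 rose and 8 fell, where 32.3% of all tested genes were called higher and 33.9% lower. The share of effectors called in either direction was close to the 66.2% of all tested genes, while more of them rose than fell. Dpysl2, the collapsin response mediator that relays Sema3a signals to microtubules, was at 9.46 and 252 RPKM, and the kinase Fyn at 14.6 and 261. Dpysl3 (14.4 and 49.9), the kinase Gsk3b (18.2 and 105), the Cdk5 activator Cdk5r1 (1.51 and 15.2), the plexin A partner Farp1 (1.27 and 10.4), the GTPases Rnd2 (2.85 and 36.9) and Rras (2.66 and 14.8), the plexin B partner Arhgef11 (9.02 and 20.1), the adaptor Nck2 (6.86 and 39.5) and Svil (14.2 and 49.2) also rose. Mras (93.8 and 28.6), Rhoa (172 and 122), Rhod (10.8 and 1.98), Limk2 (31.8 and 14.9), Tiam1 (17.5 and 3.68) and Dpysl4 (1.76 and 0.367) fell. The 3 proprotein convertases, which cut class 3 semaphorins, were split: Pcsk5 was at 0.148 and 10.2 RPKM, Furin at 6.33 and 11.5 and Pcsk6 at 27.6 and 5.82, and all 3 were called. On introns 9 of 35 tested pathway genes were called higher and 6 lower in limma, where 13.2% and 34.0% of all tested genes were, together 47.3%. With columns centred on their medians the counts were 19 and 2.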

How the data were processed

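The members, lists and alternatives were chosen with earlier results of these data known. Per the submitters' processing notes, DESeq2 1.10.0 and build mm9 were used; no source used here names an aligner, counter, annotation or strand setting. Exon values are RPKM that the authors pooled per cell type, with log2 fold changes and adjusted p-values of the authors' own comparison, which were read as deposited. Of 20512 named exon genes, those averaging 1 RPKM or more and holding an adjusted p were tested at a threshold of 0.05. Intron values were deposited per biological replicate with technical libraries combined by the authors; their header names no unit, and RPKM was inferred because whole reads came back (tolerance 0.001 reads) for 18443 of 18447 genes above 0. Introns averaging 1 RPKM or more were tested as log2(RPKM + 1) with limma 3.58.1 (R 4.3.3, mean-variance trend, Benjamini-Hochberg over 8811 genes), ESC against NPC, without pairing replicates. The fit was tested on simulated data whose spread was taken from the ESC replicates alone. That simulation did not cover the spread between the NPC replicates. Named genes were all 33 members, and those of the pathway list called on exons with an absolute log2 fold change of at least 2, or called on exons and introns; Vegfb and Furin, named to complete their groups of 4 and 3, were added after their values were seen. Markers of neurons, oligodendrocytes, endothelium and microglia summed to 238, 2.38, 59.0 and 0.438 RPKM in ESC and 52.7, 61.0, 5.20 and 1.11 in NPC. RefSeq promoter windows matched 26 of 33 members by symbol.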

Additional observations from a re-analysis of the deposited data

How the results depend on the processing

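With a mean of at least 10 RPKM, 9 members were called higher and 1 lower on exons, and 6 pathway genes lower. Directions of all 32 exon members were the same by the log2 ratio of RPKM, which over genes lay a median of 0.14 above the deposited value. On introns, a minimum of 0.1 RPKM gave 12 members and 15 pathway genes higher. Centring gave 19 pathway genes higher and 2 lower, and subtraction of the silent-gene median 1 member lower and 2 pathway genes higher. Leaving out a replicate gave 5 to 9 members higher and 1 to 3 lower, and 2 to 20 and 3 to 12 pathway genes; with a lone sample the spread of the other group was assumed for it. The intron value of Nrp2 was 0.35 with centring, 0.0704 without NPC replicate 1 and -0.17 without NPC replicate 2, and passed in none of the 12 alternatives. The model limma voom on recovered reads, chosen after seeing the data, called 0 of 31 members lower (2 at an unadjusted p under 0.05) and 7 higher (Sema3a, Sema5a, Sema6a, Sema6d, Plxna2, Plxna4, Plxnc1), and 1 pathway gene lower. The replicate block left 1 member lower, because Sema4b was lost, and added Plxna3. The replicate numbers are not shown to pair the samples (correlation of deviations over genes 0.0190). Without replicate values, no alternative could be run on the exon test itself, and depth there is unknown.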
